A study of Homo sapiens with 18 samples.

Results

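The question addressed here was whether the effect of the LIS1+/- genotype on gene expression in cerebral organoids changed between Day 5 and Day 12 of growth. It was asked over every organoid library of the series, 12 of its 18 libraries, in 4 groups of 3: Day 12 LIS1+/-, Day 12 LIS1+/+, Day 5 LIS1+/- and Day 5 LIS1+/+. All 4 groups came from WIBR3, a human embryonic stem cell line, and differed only in the LIS1 genotype and the day as far as the labels say. The remaining 6 libraries, of both genotypes and labelled hESC, entered 1 alternative fit only. Which part of LIS1 was altered, how many LIS1+/- clones were used and whether the 3 libraries of a group were separate cultures is not stated, so a p-value here measures how far these libraries scatter and no more. Genotype and clone therefore cannot be told apart.

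LIS1, whose gene symbol is PAFAH1B1, binds the microtubule motor dynein and regulates it, and people with a single working copy have lissencephaly, a smooth cortex. Organoids of this age resemble the early neural plate, where the front end is divided between the future telencephalon and the eye field, marked by homeobox genes such as RAX, SIX3, SIX6 and LHX2. The eye field then grows out as optic vesicles, whose cells become neural retina or pigment epithelium, marked by MITF and the melanin genes, and which induce the lens in the overlying ectoderm.

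Bulk MARS-seq, a method that reads a tag from the 3' end of each transcript, gave between 1513390 and 3237210 gene counts per Day 12 LIS1+/- library, 1425098 to 1962218 in Day 12 LIS1+/+, 2586073 to 3365342 in Day 5 LIS1+/- and 4216835 to 4501489 in Day 5 LIS1+/+. Levels below are CPM, gene counts per 1000000 counts of the scaled library size. The 9 neural markers checked were all detected in each group, and SOX2, a transcription factor of neural progenitors, lay between 329 and 847 CPM in every library. Genes of other cell types differed between the Day 12 groups. The summed level of 6 mesenchyme markers was 21.5 to 31.5 CPM in Day 12 LIS1+/- libraries and 60.0 to 559 CPM in Day 12 LIS1+/+ libraries. For 5 neural crest markers it was 41.2 to 54.6 CPM in Day 12 LIS1+/- and 128 to 427 CPM in Day 12 LIS1+/+. For 5 endoderm and yolk sac markers it was 8.32 to 21.2 CPM in Day 12 LIS1+/- and 22.2 to 477 CPM in Day 12 LIS1+/+. Within Day 12 LIS1+/+, replicate 1 was the highest and replicate 2 the lowest in all 3 sums. The crest regulator FOXD3 and the endoderm regulators FOXA2 and SOX17 had no count in Day 12 LIS1+/-. None of them was counted in Day 12 LIS1+/+ replicate 2 either, so the genotypes overlapped there. FOXA2 and SOX17 also had no count in Day 5 LIS1+/-. At Day 5 the mesenchyme sum was 3.07 to 10.9 CPM in LIS1+/- and 6.33 to 10.8 CPM in LIS1+/+, with overlap. The endoderm and yolk sac sum overlapped as well, at 0.767 to 3.94 CPM in LIS1+/- and 1.42 to 13.6 CPM in LIS1+/+. So did the neural, choroid plexus and blood sums, while the remaining sums stood apart. The crest sum was 69.4 to 99.7 CPM in Day 5 LIS1+/- and 126 to 143 CPM in Day 5 LIS1+/+, and that of 4 pluripotency markers 369 to 490 CPM in LIS1+/- and 668 to 753 CPM in LIS1+/+. For 5 surface ectoderm markers it was 228 to 336 CPM in Day 5 LIS1+/- and 453 to 548 CPM in Day 5 LIS1+/+. For 4 muscle markers it was 31.4 to 39.0 CPM in LIS1+/- and 106 to 126 CPM in LIS1+/+, and for 3 endothelial markers 0.789 to 4.60 CPM in LIS1+/- and 7.34 to 9.17 CPM in LIS1+/+. At Day 12 the surface ectoderm, muscle and endothelial sums overlapped between the genotypes. KRT18 and TNNT1, called below, are themselves among the surface ectoderm and muscle markers. The Day 5 muscle sum was nearly all TNNT1, since ACTC1 and MYOG had no count and MYOD1 at most 0.472 CPM. The Day 5 endothelial sum was mostly KDR, with no PECAM1 count. Both sums thus follow single genes. At Day 5 KRT18 stood at 163 to 263 CPM in LIS1+/- and 353 to 428 CPM in LIS1+/+. KRT19 and EPCAM were also lower in every LIS1+/- library there, while KRT8 overlapped and TP63 was barely detected. Counts of Day 5 LIS1+/- replicate 2 and Day 12 LIS1+/+ replicate 2 were lower for genes richer in GC, with slopes of -0.0247 and -0.0280 log2 per percent GC, against -0.00138 to 0.0104 in the other 10 libraries. Leaving out this pair or removing the trend called 142 and 97 genes in the difference of effects, 68 and 64 of them among the 77 described below. The part of the marker differences in the results was not tested. Each day also carries its own pool number in the file names, so day and pool cannot be told apart.

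**Figure D1:**
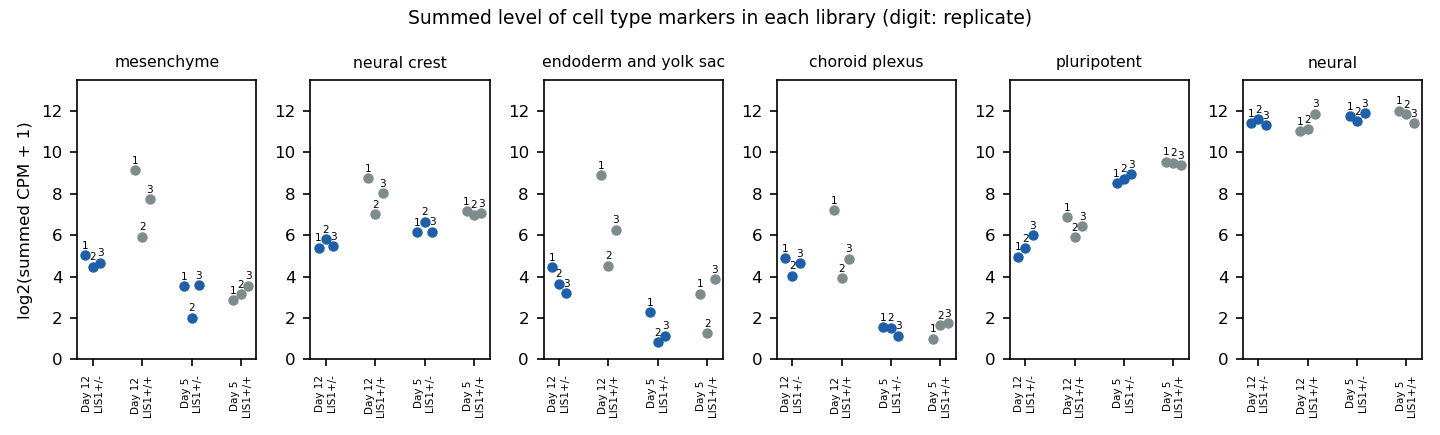
Summed level of the markers of 6 cell types in each library, as log2(summed CPM + 1), for the 4 groups, with the replicate number above each point. In the mesenchyme, neural crest and endoderm panels all 3 Day 12 LIS1+/- libraries lie below all 3 Day 12 LIS1+/+ libraries, while the neural sums of the 4 groups overlap.

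The targeted gene lay lower in LIS1+/- at both days, and the difference between the days did not pass the test. PAFAH1B1 stood at 108, 119.9 and 79.4 CPM in the Day 12 LIS1+/- libraries, against 154, 234 and 147 CPM in Day 12 LIS1+/+. At Day 5 it stood at 93.8, 109.6 and 87.5 CPM in LIS1+/-, against 136, 141 and 159 CPM in LIS1+/+. Within each day the genotypes did not overlap, with LIS1+/- below. The fitted level was 57.4% of LIS1+/+ at Day 12 and 66.8% at Day 5. On the log2 scale the effect was -0.80 ± 0.20 at Day 12 and -0.58 ± 0.20 at Day 5 (SE of the fit, n = 3 against 3), with adjusted p of 0.0688 and 0.231 over all genes. The difference of the effects was -0.22 ± 0.28 (adjusted p = 0.791), and its sign turned with the processing. It was 0.13 without the pair of libraries that showed a GC trend, 0.03 without Day 12 LIS1+/+ replicate 2 alone and 0.01 after removal of the GC trend. A tag from the 3' end says nothing of an altered part elsewhere in the gene.

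For each of the 12035 genes that passed the filter on low counts, of 26485 in the files, the Day 5 effect of LIS1+/- was subtracted from its Day 12 effect. This difference of effects passed an adjusted p under 0.05 in 77 genes (edgeR's quasi-likelihood test), which is 0.640% of those tested. It was negative in 58 genes (0.482%) and positive in 19 (0.158%). The unadjusted p was under 0.05 in 1454 of the 12035 genes, in either direction, and the list counts at that level below stand against this share. In 73 of the 77 the genotype effect had opposite signs at the 2 days. Of the 58 genes called lower, 56 were lower in LIS1+/- than in LIS1+/+ at Day 12 and higher at Day 5. Of the 19 called higher, 17 showed the reverse. Opposite effects make a difference large, so these shares follow in part from the call itself and are given as a description. By size, 46 genes reversed with an absolute log2 effect of at least 0.5 at both days (37 of those called lower and 9 of those called higher), and of the others 17 had the larger effect at Day 12 and 14 the larger effect at Day 5.

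Each day taken alone called 118 genes at Day 12 (0.980%, 25 higher and 93 lower in LIS1+/-) and 144 at Day 5 (1.20%, 57 higher and 87 lower). The days share no library. Of the 118 genes called at Day 12, 68 had the same sign at Day 5 (57.6%), and of the 144 called at Day 5, 84 had the same sign at Day 12 (58.3%), against 46.8% of all tested genes. Only 20 genes were called at both days, 13 of them in the same direction and 7 in opposite directions. The count of 7 depended on single libraries: it was 0, 1 and 1 without Day 12 LIS1+/- replicates 1, 2 and 3, 4, 2 and 4 without those of Day 5 LIS1+/+, 4 without Day 5 LIS1+/- replicate 1 or 3, and 6 to 10 without any other. With no filter on low counts it was 28. The 7 genes with opposite directions were all called in the difference of effects too. Among the 77, a further 25 were called at Day 12 only, 28 at Day 5 only, 1 (PODXL) at both in the same direction and 16 at neither. The strand used in counting is not stated, and 26 of the 75 called genes found in GENCODE share exonic bases with a gene on the other strand, so reads of the 2 partners cannot be told apart there. Among them are MAB21L1 (opposite NBEA), MAB21L2 (LRBA), NR2F1 (NR2F1-AS1), LAMB1 (DLD), MFAP4 (MAPK7), RPA1 (SMYD4), INPP1 (HIBCH) and KRT18 (KRT8). MEIS2, ALDH1A3, HSD17B2, VAX2, TYRP1, TBX2, HAS2 and MEIS1 lie opposite genes known by an antisense or a clone name.

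**Figure D2:**
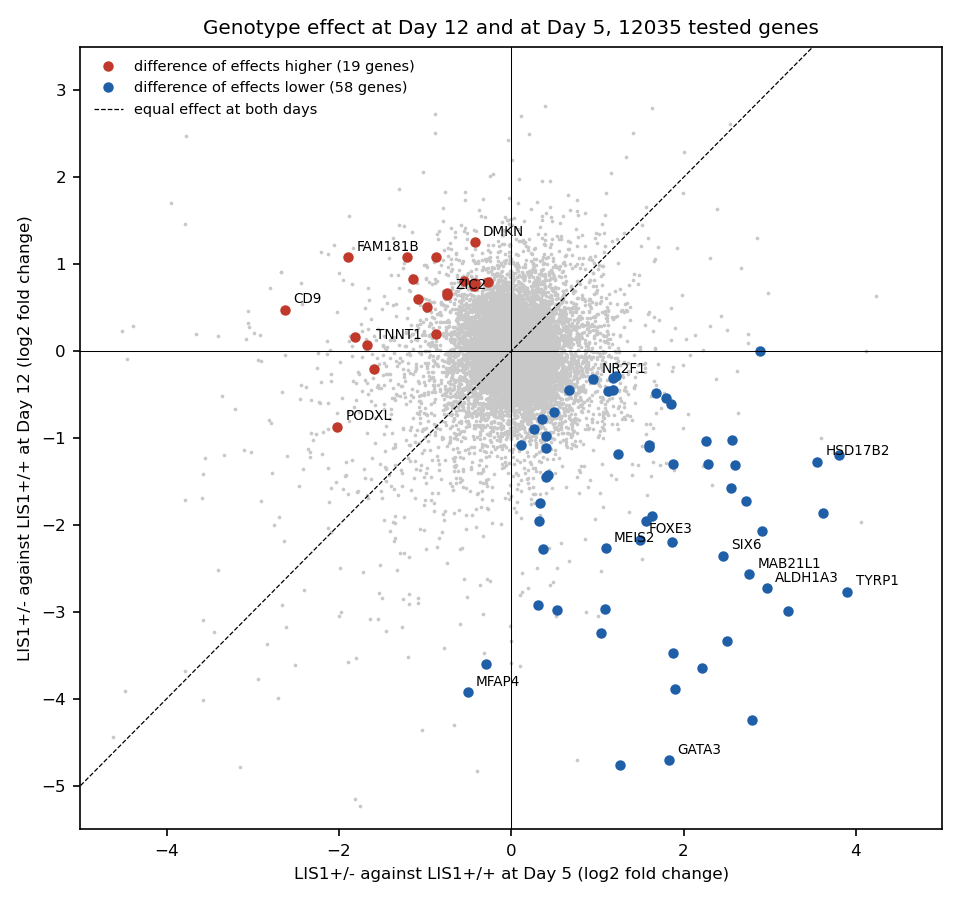
Genotype effect at Day 12 (vertical axis) against that at Day 5 (horizontal axis), each as the log2 fold change of LIS1+/- over LIS1+/+, for those of the 12035 tested genes that lie within the axes. Genes with larger effects, such as TCEAL5 (-5.96 at Day 12 and -6.60 at Day 5), fall outside. The 58 genes with a called negative difference (blue) lie below the dashed line of equal effects, 56 of them in the lower right corner, and 17 of the 19 with a called positive difference (red) lie in the upper left corner.

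The genes called at both days in opposite directions hold 5 that were lower in LIS1+/- at Day 12 and higher at Day 5, and these are developmental regulators of the eye, the lens and the placodes or an enzyme that acts there. MEIS2, a homeobox cofactor expressed in the optic vesicle, stood at 6.44, 7.76 and 12.2 CPM in Day 12 LIS1+/-, against 60.9, 42.5 and 29.3 CPM in Day 12 LIS1+/+. At Day 5 its level was 42.2, 37.2 and 40.7 CPM in LIS1+/-, against 21.3, 16 and 18.8 CPM in LIS1+/+. The groups did not overlap at either day. The log2 effect was -2.27 ± 0.30 at Day 12 (adjusted p = 0.000841) and 1.10 ± 0.26 at Day 5 (adjusted p = 0.0482), a difference of -3.36 ± 0.40 (adjusted p = 0.000380).

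ALDH1A3, which makes retinoic acid in the ventral retina, stood at 0, 1.49 and 2.08 CPM in Day 12 LIS1+/-, against 4.74, 16.9 and 7.19 CPM in Day 12 LIS1+/+. Day 5 ALDH1A3 levels were 15.8, 16.5 and 21.3 CPM in LIS1+/-, against 2.03, 3.07 and 1.65 CPM in LIS1+/+. Here the Day 5 libraries of LIS1+/- lay far above all others except Day 12 LIS1+/+ replicate 2, and the genotypes did not overlap at either day. Its effect was -2.72 ± 0.59 at Day 12 and 2.97 ± 0.48 at Day 5, a difference of -5.69 ± 0.76 (adjusted p = 0.00141). MAB21L1, which the mouse lens and retina need to form, stood at 6.44, 9.84 and 4.46 CPM in Day 12 LIS1+/-, against 37.9, 72.1 and 15.9 CPM in Day 12 LIS1+/+. Day 5 MAB21L1 levels were 15.8, 22.6 and 15.2 CPM in LIS1+/-, against 3.80, 0.944 and 3.06 CPM in LIS1+/+. Again no library crossed between the genotypes at either day, although the Day 12 LIS1+/+ libraries spread widely. The difference of the effects was -5.33 ± 0.72 (adjusted p = 0.00174).

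FOXE3, a forkhead factor of the lens, lay at 3.22, 3.28 and 3.27 CPM in Day 12 LIS1+/-, against 10.8, 21.6 and 12.3 CPM in Day 12 LIS1+/+. Day 5 FOXE3 levels were 38.2, 28 and 52.6 CPM in LIS1+/-, against 15.9, 9.91 and 16.5 CPM in LIS1+/+. From Day 5 to Day 12 it fell in LIS1+/- (-3.59 ± 0.37, adjusted p = 3.55e-06), whereas the change in LIS1+/+ was 0.07 ± 0.33 (adjusted p = 0.896). The difference was -3.66 ± 0.50 (adjusted p = 0.00150). EYA2, a partner of sine oculis homeobox proteins in placodes, had 6.44, 7.46 and 6.24 CPM in Day 12 LIS1+/-, against 37.2, 12.1 and 26.2 CPM in Day 12 LIS1+/+. Day 5 EYA2 levels were 29.6, 15.3 and 24.9 CPM in LIS1+/-, against 7.59, 7.31 and 7.53 CPM in LIS1+/+. For EYA2 the step from Day 5 to Day 12 was a fall in LIS1+/- (-1.78 ± 0.37) and a rise in LIS1+/+ (1.75 ± 0.35), and the difference was -3.53 ± 0.51 (adjusted p = 0.00185).

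A pair of genes was called at both days the other way round, higher in LIS1+/- at Day 12 and lower at Day 5. FAM181B, a gene of little known function that is expressed in the developing nervous system, stood at 259.99, 170.03 and 239.8 CPM in Day 12 LIS1+/-, against 79.2, 113 and 124 CPM in Day 12 LIS1+/+. Day 5 FAM181B levels were 10.6, 14.6 and 6.38 CPM in LIS1+/-, against 43.3, 36.3 and 36 CPM in LIS1+/+. It rose over the step in both genotypes, by 4.42 ± 0.28 in LIS1+/- and by 1.45 ± 0.24 in LIS1+/+, and LIS1+/- ended above LIS1+/+. The difference was 2.97 ± 0.36 (adjusted p = 0.000380). ZIC2, a zinc finger factor of the forebrain midline whose loss in people causes holoprosencephaly, had 678, 598 and 591 CPM in Day 12 LIS1+/-, against 418, 389.6 and 387 CPM in Day 12 LIS1+/+. Day 5 ZIC2 levels were 228, 287 and 266 CPM in LIS1+/-, against 414, 451 and 444 CPM in LIS1+/+. Its level in LIS1+/+ changed by -0.13 ± 0.14 (adjusted p = 0.522) between the days, while in LIS1+/- it rose by 1.26 ± 0.14 (adjusted p = 8.20e-06). Fitted effects were below 2-fold at either day (0.64 ± 0.14 at Day 12 and -0.74 ± 0.14 at Day 5), yet the libraries did not overlap, and the difference of effects was 1.39 ± 0.20 (adjusted p = 0.00174). In all 7 genes the difference of effects passed with each of the 12 libraries left out in turn.

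**Figure D3:**
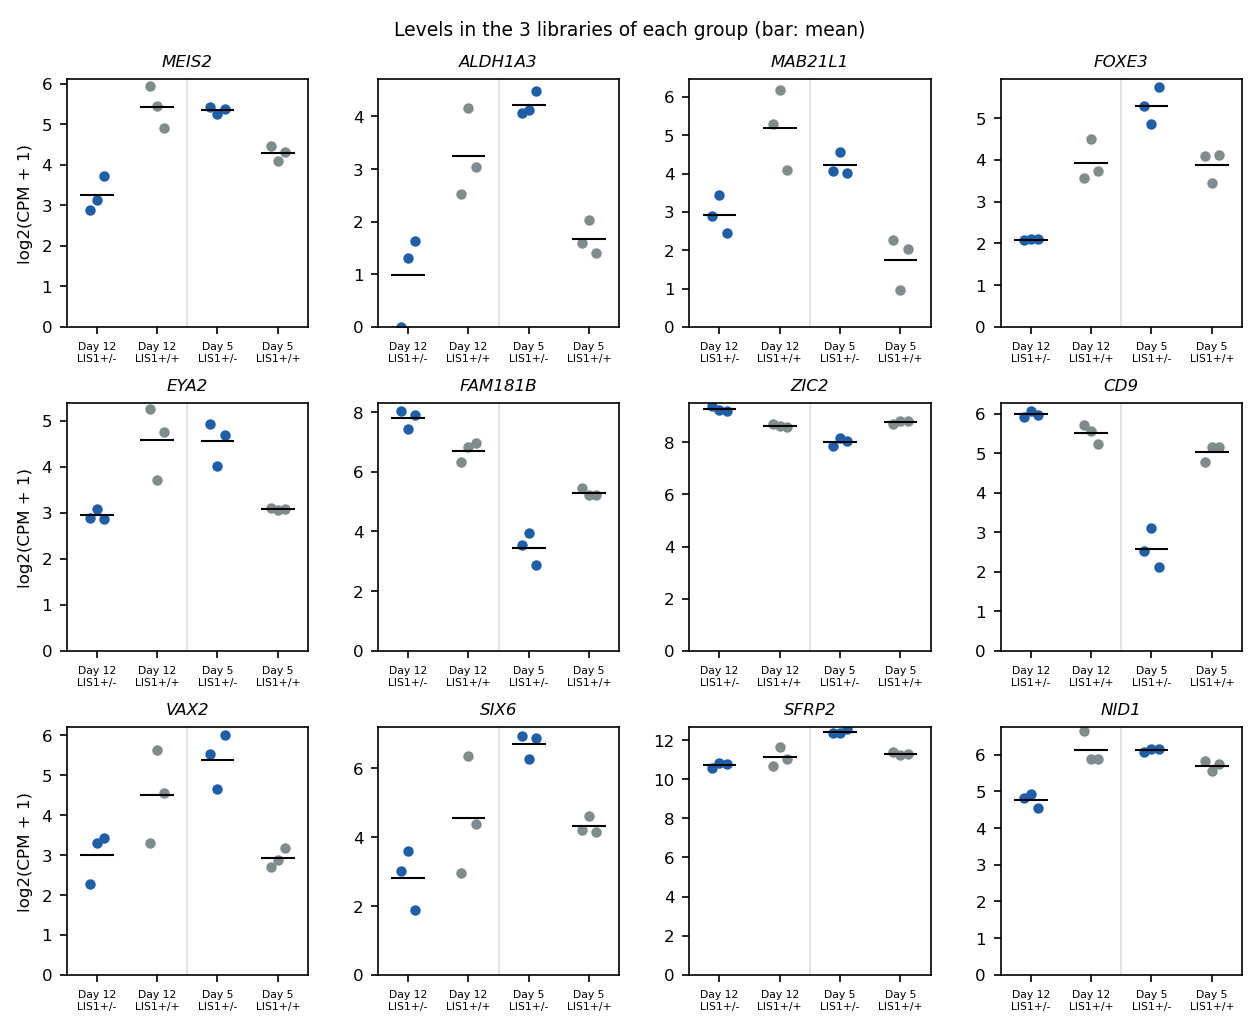
Level of 12 genes in every library as log2(CPM + 1), with LIS1+/- in blue, LIS1+/+ in grey and a bar at the mean of 3 libraries. In MEIS2, ALDH1A3, MAB21L1, FOXE3 and EYA2 the LIS1+/- libraries lie below LIS1+/+ at Day 12 and above it at Day 5, in FAM181B, ZIC2 and CD9 the order is the reverse, and in VAX2 and SIX6 the Day 12 LIS1+/+ libraries spread widely.

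Because so many of these genes belong to the early eye, a list of 50 genes of the eye field, the optic cup and the pigment epithelium was written from textbook knowledge after their values had been seen, so its counts are a description with no test. Of its 37 tested members, 18 were called lower and 0 higher in the difference of effects (edgeR), against 0.482% and 0.158% of all tested genes. DESeq2 called 23 lower and 0 higher, and at an unadjusted p under 0.05 edgeR had 29 lower and 1 higher. The difference was negative in 33 members and positive in 4, against 6299 and 5736 of all tested genes. The median log2 effect of LIS1+/- over the 37 members was -1.32 at Day 12 and 1.19 at Day 5, and the median difference was -2.43, against medians of -0.03, 0.01 and -0.03 over all tested genes. At Day 12, 10 members were called lower in LIS1+/- and 0 higher, against 0.773% and 0.208% of all tested genes. At Day 5, 13 were called higher and 0 lower, against 0.474% and 0.723%. With each library left out in turn, between 8 and 19 members were called lower in the difference of effects. Replicate 2 of Day 12 LIS1+/+, which showed a GC trend, was the highest of its group in several members, such as ALDH1A3, MAB21L1, FOXE3 and VAX2. Replicate 1 was the highest in others, such as MEIS2, EYA2, MAB21L2 and TBX2. In bulk RNA, fewer cells of a type and less RNA per cell cannot be told apart.

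**Figure D4:**
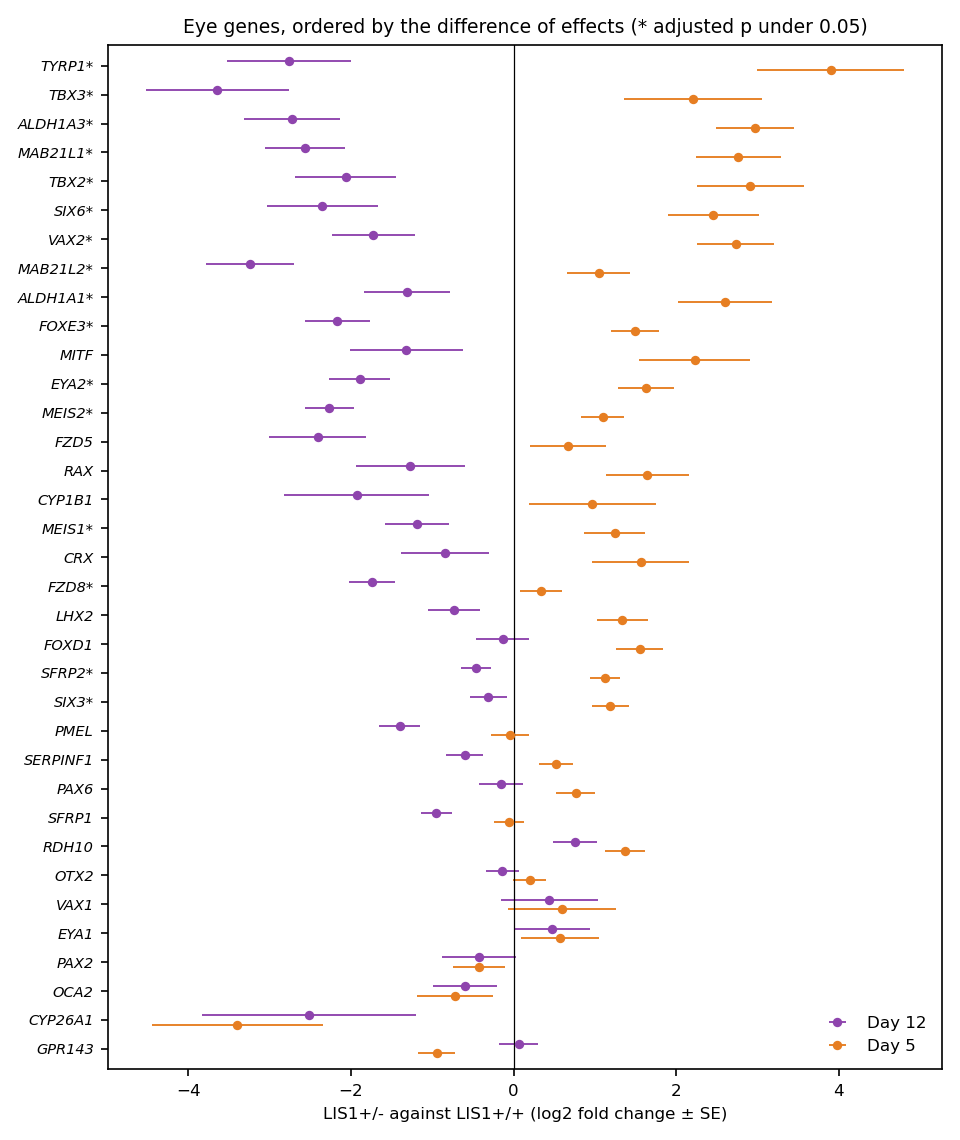
Log2 fold change of LIS1+/- over LIS1+/+ with its SE at Day 12 (purple) and Day 5 (orange) for 35 of the 37 tested genes of the eye list, ordered by the difference of the effects, with an asterisk where that difference had an adjusted p under 0.05. In the rows above PMEL every Day 12 value lies left of 0 and every Day 5 value right of it.

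Among regulators of the retina, VAX2, a homeobox gene of the ventral optic vesicle, stood at 3.86, 8.95 and 9.81 CPM in Day 12 LIS1+/-, against 8.80, 48.5 and 22.6 CPM in Day 12 LIS1+/+. Day 5 VAX2 levels were 44.9, 24.1 and 63.5 CPM in LIS1+/-, against 5.57, 6.37 and 8.0 CPM in LIS1+/+. The genotypes were apart at Day 5 and overlapped at Day 12, where LIS1+/+ replicate 1 fell within the LIS1+/- range. The difference was -4.45 ± 0.69 (adjusted p = 0.00621) and passed with each library left out. ATP6V1B1, a subunit of the proton pump, shares exonic bases with VAX2 on the same strand of chromosome 2, so the counts of these neighbours cannot be fully separated, and its difference was -4.14 ± 0.68 (adjusted p = 0.00621). MAB21L2, a relative of MAB21L1 that is mutated in people with small or absent eyes, was lower in every LIS1+/- library at Day 12 (3.86, 1.19 and 4.46 CPM, against 55.5, 14.2 and 19 CPM in LIS1+/+) and higher in every one at Day 5 (35.5, 45.2 and 67.7 CPM, against 27.8, 21.5 and 22.8 CPM in LIS1+/+). Its difference was -4.29 ± 0.67 (adjusted p = 0.00621), with a Day 12 effect that was called (-3.24 ± 0.54, adjusted p = 0.00850) and a Day 5 effect that was not (1.05 ± 0.39, adjusted p = 0.313).

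SIX6, a homeobox gene of the eye field, had 7.08, 11 and 2.67 CPM in Day 12 LIS1+/-, against 6.77, 80.9 and 20.04 CPM in Day 12 LIS1+/+. Day 5 SIX6 levels were 121, 77 and 118 CPM in LIS1+/-, against 17.5, 23.4 and 16.7 CPM in LIS1+/+. At Day 5 all 3 LIS1+/- libraries were at least 3-fold above LIS1+/+, whereas at Day 12 the mean of LIS1+/+ rested on replicate 2. The difference was -4.81 ± 0.88 (adjusted p = 0.0286). It passed with 4 of the 12 libraries left out in turn, with adjusted p up to 0.117, and not once the GC trend was removed.

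Other called members of the eye list included T-box factors, retinoic acid enzymes and a melanin gene. TBX2 and TBX3, T-box factors of the dorsal retina, had differences of -4.98 ± 0.91 (adjusted p = 0.0146) and -5.85 ± 1.22 (adjusted p = 0.0385), with 5.15, 3.28 and 1.19 CPM of TBX2 in Day 12 LIS1+/-, against 15.6, 12.8 and 9.25 CPM in Day 12 LIS1+/+. Day 5 TBX2 levels were 15, 3.45 and 6.38 CPM in LIS1+/-, against 2.03, 0.236 and 0.941 CPM in LIS1+/+. The TBX2 libraries did not overlap at either day, and those of TBX3 overlapped at Day 5. ALDH1A1, the retinoic acid enzyme of the dorsal retina, averaged 5.88 ± 3.33 CPM in Day 12 LIS1+/- and 13.9 ± 3.25 CPM in Day 12 LIS1+/+, and 8.42 ± 3.26 CPM in Day 5 LIS1+/- and 1.37 ± 1.07 CPM in Day 5 LIS1+/+ (SD, n = 3 each), a difference of -3.91 ± 0.78 (adjusted p = 0.0281). TYRP1, an enzyme of melanin synthesis, had 1.29, 2.09 and 0.297 CPM in Day 12 LIS1+/-, against 16.3, 6.74 and 3.08 CPM in Day 12 LIS1+/+. Day 5 TYRP1 levels were 2.37, 5.37 and 4.86 CPM in LIS1+/-, against 0.506, 0.236 and 0 CPM in LIS1+/+. The Day 5 LIS1+/+ libraries held 3 TYRP1 counts in all, and the ratio of pooled counts at Day 5 was 17.7 (95% counting interval 5.59 to 89.8). The fitted difference of TYRP1 was -6.67 (adjusted p = 0.0127), and leaving out Day 12 LIS1+/- replicate 3 or Day 5 LIS1+/+ replicate 2 or 3 ended the call, with adjusted p up to 0.0567.

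MEIS1, the relative of MEIS2, had a difference of -2.43 ± 0.54 (adjusted p = 0.0467) with overlapping libraries at Day 12, and SIX3, a homeobox gene of the anterior neural plate and eye field, one of -1.50 ± 0.32 (adjusted p = 0.0432). At Day 12 SIX3 stood at 200.1, 212 and 189 CPM in LIS1+/-, against 134, 326 and 287 CPM in LIS1+/+, with overlap. Day 5 SIX3 levels were 366, 283 and 302 CPM in LIS1+/-, against 139, 147 and 131 CPM in LIS1+/+, well apart (1.19 ± 0.23, adjusted p = 0.0110). Both passed with only 2 of the 12 libraries left out in turn (adjusted p up to 0.182 and 0.159), and neither passed once the GC trend was removed.

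Several central genes of the eye missed the threshold. LHX2, a homeobox gene needed for optic vesicles to form in mice, had 146, 148 and 89.2 CPM in Day 12 LIS1+/-, against 90.7, 307 and 238 CPM in Day 12 LIS1+/+. Day 5 LHX2 levels were 265, 289 and 220.3 CPM in LIS1+/-, against 100.2, 112 and 94.3 CPM in LIS1+/+, with a difference of -2.07 ± 0.45 (adjusted p = 0.0522). RAX, the earliest eye field homeobox gene, had 12.9, 9.55 and 7.73 CPM in Day 12 LIS1+/-, against 5.42, 48.5 and 17 CPM in Day 12 LIS1+/+. Day 5 RAX levels were 249.98, 63.2 and 224 CPM in LIS1+/-, against 52.7, 76.4 and 42.6 CPM in LIS1+/+, with overlap at both days (-2.92 ± 0.84, adjusted p = 0.188). At Day 5, LIS1+/- replicate 2 was the low RAX library. PAX6 stood at -0.91 ± 0.36 (adjusted p = 0.341), the pigment cell regulator MITF at -3.54 ± 0.97 (adjusted p = 0.124), the WNT receptor gene FZD5 at -3.08 ± 0.76 (adjusted p = 0.0832) and the pigment granule gene PMEL at -1.36 ± 0.35 (adjusted p = 0.0908). FOXD1, a forkhead factor of the temporal retina, was called at Day 5 (1.55 ± 0.29, adjusted p = 0.00985) and not in the difference (-1.69 ± 0.44, adjusted p = 0.0973).

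The promoters of 3 of these genes are shown because they hold a short motif that proteins of the families above bind, from 250 bases before to 50 after the gene's start (RefSeq, GRCh38.p14). The letters TAATTA, the core that many homeodomains bind, are in capitals in MAB21L1 (chr13:35476640-35476939, minus strand) and TYRP1 (chr9:12693135-12693434, plus strand), and TGACAG, the core bound by MEIS proteins, in SIX6 (chr14:60508896-60509195, plus strand).
MAB21L1: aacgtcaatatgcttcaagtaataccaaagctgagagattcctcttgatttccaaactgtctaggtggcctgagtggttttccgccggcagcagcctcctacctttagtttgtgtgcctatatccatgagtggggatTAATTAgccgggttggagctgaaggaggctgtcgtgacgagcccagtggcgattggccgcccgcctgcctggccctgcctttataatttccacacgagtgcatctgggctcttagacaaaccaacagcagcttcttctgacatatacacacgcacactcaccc
TYRP1: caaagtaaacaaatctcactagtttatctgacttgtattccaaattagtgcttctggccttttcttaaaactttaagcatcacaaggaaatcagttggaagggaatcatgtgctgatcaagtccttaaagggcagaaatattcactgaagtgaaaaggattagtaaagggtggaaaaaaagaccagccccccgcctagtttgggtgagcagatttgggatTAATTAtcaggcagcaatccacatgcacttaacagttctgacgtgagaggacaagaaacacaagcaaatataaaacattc
SIX6: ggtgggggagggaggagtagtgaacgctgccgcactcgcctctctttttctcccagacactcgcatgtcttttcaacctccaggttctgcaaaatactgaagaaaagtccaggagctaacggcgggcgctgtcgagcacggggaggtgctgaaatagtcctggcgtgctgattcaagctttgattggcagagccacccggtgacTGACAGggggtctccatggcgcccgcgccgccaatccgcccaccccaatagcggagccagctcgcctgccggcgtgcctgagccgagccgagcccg
The RefSeq table had a promoter for 34 of the 58 genes called lower and 14 of the 19 called higher. Searched on both strands, TAATTA was in 3 of the 34 (8.82%) and in 0 of the 14, against 4.84% of 35116 promoters. TGACAG was in 6 of the 34 (17.6%) and 1 of the 14 (7.14%), against 15.8%. CACGTG, the E-box core bound by MITF and MYC proteins, was in 1 of the 34 (2.94%) and 4 of the 14 (28.6%), against 7.26%. No match in the windows shown overlaps another, and a match is not a measured binding site.

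Forebrain regulators outside the eye moved in different ways. NR2F1, a nuclear receptor that patterns the cortex and is mutated in an optic atrophy syndrome, had 1005, 1306 and 1179 CPM in Day 12 LIS1+/-, against 1419, 1646 and 1298 CPM in Day 12 LIS1+/+. Day 5 NR2F1 levels were 748, 704 and 825 CPM in LIS1+/-, against 398, 391 and 388 CPM in LIS1+/+. Its effect was called at Day 5 (0.95 ± 0.14, adjusted p = 0.00229) and -0.32 ± 0.14 at Day 12 (adjusted p = 0.373), where the libraries overlapped, a difference of -1.27 ± 0.20 (adjusted p = 0.00576). OTX1, a homeobox gene of the forebrain and midbrain, went the other way, with 366, 386 and 559.9 CPM in Day 12 LIS1+/-, against 252, 229 and 297 CPM in Day 12 LIS1+/+. Day 5 OTX1 levels were 397, 322 and 399 CPM in LIS1+/-, against 514, 473 and 524 CPM in LIS1+/+ (1.19 ± 0.24, adjusted p = 0.0316, and up to 0.118 with a library left out). Of 19 tested genes of a forebrain list, 4 were called lower, NR2F1, SIX3 and SIX6 among them, and 1 higher (OTX1), with a median difference of -0.24. This list overlaps the eye list, and its members SIX3 and SIX6 were counted there too.

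None of the 14 tested genes of a midbrain and hindbrain list was called in the difference of effects (edgeR). An unadjusted p under 0.05 was reached by 5, all positive, against 1454 of the 12035 tested genes in either direction. DESeq2 called GBX2 and BARHL1 higher. The difference was positive in 11 of the 14, against 5736 of all tested genes, and the median was 1.06, against -0.03. At Day 5, 4 of the 14 were called lower in LIS1+/-, against 0.723% of all tested genes. GBX2, a homeobox gene of the anterior hindbrain, had 21.2, 27.4 and 23.8 CPM in Day 12 LIS1+/-, against 44, 18.9 and 12.8 CPM in Day 12 LIS1+/+, which overlapped, with LIS1+/+ replicate 1 the highest. Day 5 GBX2 levels were 10.6, 12.6 and 6.38 CPM in LIS1+/-, against 51.9, 41.1 and 36.7 CPM in LIS1+/+, with no overlap (-2.14 ± 0.36, adjusted p = 0.00514). The others called at Day 5 were the homeobox genes BARHL1 (-2.11 ± 0.43, adjusted p = 0.0291), IRX1 (-2.30 ± 0.37, adjusted p = 0.00557) and IRX2 (-1.51 ± 0.26, adjusted p = 0.00583). The differences of effects were 2.11 ± 0.50 for GBX2 (adjusted p = 0.0680), 2.12 ± 0.58 for BARHL1 (0.158), 1.28 ± 0.52 for IRX1 (0.348) and 1.08 ± 0.36 for IRX2 (0.261).

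LGR4 and SFRP2, components of WNT signalling, passed in every alternative tried. LGR4, a receptor for R-spondins that strengthens the WNT response, had 12.2, 13.4 and 14.3 CPM in Day 12 LIS1+/-, against 35.2, 44.5 and 31.3 CPM in Day 12 LIS1+/+. Day 5 LGR4 levels were 76.9, 73.2 and 88.4 CPM in LIS1+/-, against 59.7, 70.3 and 51 CPM in LIS1+/+. LGR4 fell from Day 5 to Day 12 in both genotypes, with log2 steps of -2.56 ± 0.22 in LIS1+/- and -0.71 ± 0.20 in LIS1+/+, and the difference was -1.85 ± 0.30 (adjusted p = 0.00576). SFRP2, a secreted WNT antagonist, had 1534, 1785 and 1757 CPM in Day 12 LIS1+/-, against 1656, 3239 and 2098 CPM in Day 12 LIS1+/+. Day 5 SFRP2 levels were 5286, 5246 and 5958 CPM in LIS1+/-, against 2664, 2420.4 and 2481 CPM in LIS1+/+. At Day 5 every LIS1+/- library was higher, while at Day 12 LIS1+/+ replicate 1 fell within the LIS1+/- range. The SFRP2 difference was -1.59 ± 0.26 (adjusted p = 0.00621). The receptor gene FZD8 had a difference of -2.08 ± 0.38 (adjusted p = 0.0146), lost without Day 12 LIS1+/- replicate 3 or Day 5 LIS1+/+ replicate 1 or 3 (adjusted p up to 0.0785). Of 38 tested genes of a WNT list that holds SFRP2 and FZD8, these 2 were called lower and 0 higher by edgeR (DESeq2 called 3 lower and 2 higher, and 8 were lower and 7 higher at an unadjusted p under 0.05). The list's median difference was 0.15. Both genes are also in the eye list.

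Several genes of the basement membrane and the matrix around cells were called too. NID1, which encodes nidogen, a linker of basement membrane proteins, had 27, 29.5 and 22.3 CPM in Day 12 LIS1+/-, against 98.2, 57.3 and 57.5 CPM in Day 12 LIS1+/+. Day 5 NID1 levels were 66.6, 69.8 and 70.2 CPM in LIS1+/-, against 55.4, 45.8 and 52.2 CPM in LIS1+/+. The groups did not overlap at either day, the Day 5 effect was 0.43 ± 0.21 (adjusted p = 0.478), and the difference was -1.86 ± 0.31 (adjusted p = 0.00621). The laminin gene LAMB1 followed with -2.29 ± 0.43 (adjusted p = 0.0201), and it passed in 7 of 12 fits with a library left out (adjusted p up to 0.102). Of 38 tested genes of a collagen and matrix list, these 2 were called lower and 0 higher by edgeR and by DESeq2 (5 lower and 0 higher at an unadjusted p under 0.05, median -0.13). The transmembrane collagen gene COL13A1 stood at -3.51 ± 0.64, the hyaluronan synthase gene HAS2 at -5.79, and the elastic fibre gene MFAP4 at -3.42 ± 0.72 (adjusted p = 0.0146, 0.0437 and 0.0467). HAS2 held 3 counts in Day 12 LIS1+/-, 17.4-fold fewer than in LIS1+/+ after scaling (95% counting interval 5.43 to 89.0). MFAP4 had 5.15, 8.65 and 4.46 CPM in Day 12 LIS1+/-, against 181, 33 and 71.4 CPM in Day 12 LIS1+/+, the order of the LIS1+/+ libraries being that of their mesenchyme sums.

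Among secreted signals, CCL2, a chemokine that attracts monocytes, had 3.22, 2.39 and 1.19 CPM in Day 12 LIS1+/-, against 5.42, 18.9 and 5.65 CPM in Day 12 LIS1+/+. Day 5 CCL2 levels were 22.1, 20.7 and 21 CPM in LIS1+/-, against 7.59, 4.72 and 5.17 CPM in LIS1+/+. The groups did not overlap at either day and the order reversed, for a difference of -4.06 ± 0.66 (adjusted p = 0.00621). SPP1, the secreted phosphoprotein osteopontin, had 0.644, 0.597 and 0.297 CPM in Day 12 LIS1+/-, against 6.09, 3.37 and 3.08 CPM in Day 12 LIS1+/+. Day 5 SPP1 levels were 21.3, 21.1 and 19.1 CPM in LIS1+/-, against 7.09, 12.5 and 9.17 CPM in LIS1+/+ (-4.06 ± 0.69, adjusted p = 0.00747, and 0.0585 without Day 12 LIS1+/- replicate 3). HSD17B2, an enzyme that inactivates oestradiol and testosterone, was lowest in Day 5 LIS1+/+. It had 6.44, 13.7 and 12.2 CPM in Day 12 LIS1+/-, against 25.7, 46.5 and 10.3 CPM in Day 12 LIS1+/+. Day 5 HSD17B2 levels were 17, 24.1 and 24.9 CPM in LIS1+/-, against 1.27, 1.18 and 3.06 CPM in LIS1+/+. The effect at Day 5 was called (3.55 ± 0.51, adjusted p = 0.00170), and the Day 12 libraries overlapped. Its difference was -4.82 ± 0.67 (adjusted p = 0.00174).

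Other large negative differences were those of GATA3 and DAPL1. GATA3, a zinc finger factor of several epithelia and of the inner ear, had 0, 0.298 and 0.594 CPM in Day 12 LIS1+/-, against 25.1, 6.07 and 1.03 CPM in Day 12 LIS1+/+. Day 5 GATA3 levels were 1.18, 5.37 and 3.95 CPM in LIS1+/-, against 0.253, 1.18 and 1.41 CPM in LIS1+/+. The Day 12 LIS1+/- group held 3 counts, 26.9-fold fewer than LIS1+/+ after scaling (95% counting interval 8.68 to 135), and Day 12 LIS1+/+ replicate 1 carried most of the level there. The fitted difference was -6.54 (adjusted p = 0.0462, and up to 0.148 with a library left out). DAPL1, a gene expressed in the retinal pigment epithelium, had a difference of -5.83 ± 1.08 (adjusted p = 0.0170, up to 0.0848 with a library left out), with 0.644, 2.68 and 1.49 CPM in Day 12 LIS1+/-, against 7.45, 40.4 and 7.19 CPM in Day 12 LIS1+/+, where replicate 2 was the high library. Day 5 DAPL1 levels were 4.73, 2.68 and 7.90 CPM in LIS1+/-, against 0.253, 0.708 and 1.65 CPM in LIS1+/+, with no overlap.

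The rest of the 58 genes called lower fell into small groups. Regulators of growth were MYCN (-1.14 ± 0.23), the cyclin gene CCND2 (-1.12 ± 0.25) and the kinase gene PLK2 (-3.28 ± 0.63). MYCN had 101, 122 and 117 CPM in Day 12 LIS1+/-, against 167, 228 and 192 CPM in Day 12 LIS1+/+, and CCND2, whose level rose with time in both genotypes, had 284, 297 and 319 CPM in Day 12 LIS1+/-, against 532, 355 and 342 CPM in Day 12 LIS1+/+. Both were apart at each day by less than 2-fold in their means. Tied to translation were the ribosomal protein gene RPL34 (-1.15 ± 0.24), which has many near-identical copies, and the snoRNA host gene SNHG6 (-1.20 ± 0.23). Enzymes and signalling proteins were the lipoprotein lipase gene LPL (-3.59 ± 0.75), the xenobiotic enzyme gene CYP1A1 (-3.17 ± 0.62), the thyroid hormone deiodinase gene DIO3 (-2.33 ± 0.48), MGST1 (-1.52 ± 0.34), COLGALT2 (-1.50 ± 0.30), INPP1 (-2.68 ± 0.59), PGM5 (-3.58 ± 0.78), the scavenging chemokine receptor gene ACKR3 (-1.63 ± 0.35) and VAV3 (-5.48 ± 1.24). GPM6A, a neuronal membrane glycoprotein gene, had 29, 19.99 and 15.2 CPM in Day 12 LIS1+/-, against 11.5, 20.2 and 30.3 CPM in Day 12 LIS1+/+, with overlap. Day 5 GPM6A levels were 6.70, 6.13 and 10.9 CPM in LIS1+/-, against 1.27, 0.472 and 1.41 CPM in LIS1+/+, well apart (difference -2.89 ± 0.63).

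A few of the largest values rest on a group with almost no counts. PDE3A (-5.35) held 3 counts in Day 12 LIS1+/-, 11.8-fold fewer than LIS1+/+ after scaling (95% counting interval 3.52 to 61.7). RPA1 (-6.02) held 1 count there, 37-fold fewer (5.99 to 1530). The mesodermal forkhead gene FOXF1 (-5.01) held 24 counts in Day 5 LIS1+/-, against 2 counts in Day 5 LIS1+/+, 17.7-fold higher in LIS1+/- after scaling (4.39 to 154). Others called lower were HOMER2 (-2.46 ± 0.45), FAM69C (-3.23 ± 0.60), TCERG1L (-3.52 ± 0.70), SHISA2 (-2.65 ± 0.53), DNAJC1 (-1.38 ± 0.28), EFEMP1 (-2.16 ± 0.47), KANK4 (-2.70 ± 0.60) and LOC100506548 (-1.19 ± 0.26). Apart from those above that passed in every fit, these calls were lost in at least 1 fit that left out a library.

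Of the 19 genes called higher, CD9 had the largest difference. CD9, a tetraspanin of the cell surface that stem cells carry, had 59.9, 65.9 and 61.2 CPM in Day 12 LIS1+/-, against 51.5, 46.5 and 37 CPM in Day 12 LIS1+/+. Day 5 CD9 levels were 4.73, 7.67 and 3.34 CPM in LIS1+/-, against 26.3, 34.9 and 34.6 CPM in LIS1+/+. Only the Day 5 LIS1+/- libraries were low, and from there CD9 rose by 3.59 ± 0.28 to Day 12, whereas the change in LIS1+/+ was 0.49 ± 0.23 (adjusted p = 0.138). The effect was 0.48 ± 0.23 at Day 12 (adjusted p = 0.417) and -2.62 ± 0.28 at Day 5 (adjusted p = 6.06e-05), a difference of 3.10 ± 0.36 (adjusted p = 0.000380). PODXL, a sialomucin of stem cells, was lower in LIS1+/- at both days, with 26.4, 30.4 and 36.9 CPM in Day 12 LIS1+/-, against 53.5, 52.6 and 66.3 CPM in Day 12 LIS1+/+. Day 5 PODXL levels were 66.6, 62.5 and 62.3 CPM in LIS1+/-, against 234, 247 and 297 CPM in LIS1+/+. The gap narrowed by 1.16 ± 0.25 (adjusted p = 0.0447), a call that held with 1 of 12 libraries left out (adjusted p up to 0.164). ALPL, the alkaline phosphatase that also marks stem cells, stood at 1.42 ± 0.31 (adjusted p = 0.0437). Of 16 tested genes of a pluripotency list PODXL alone was called higher and 0 lower by edgeR and by DESeq2 (4 higher and 1 lower at an unadjusted p under 0.05). At Day 12, 2 of them were called lower in LIS1+/-, against 0.773% of all tested genes, and at Day 5, 9, against 0.723%. FOXD3, which is also in a neural crest list and had no count in Day 12 LIS1+/-, is 1 of those 2.

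Several genes called higher fell in LIS1+/+ between the days, while their LIS1+/- step was not called. TNNT1, the slow skeletal troponin T, had 54.1, 38.2 and 32.7 CPM in Day 12 LIS1+/-, against 36.6, 28.3 and 50.9 CPM in Day 12 LIS1+/+. Day 5 TNNT1 levels were 39, 31.4 and 36.2 CPM in LIS1+/-, against 106, 126 and 109 CPM in LIS1+/+. The high group was Day 5 LIS1+/+, and the other 3 overlapped. The step was 0.20 ± 0.23 in LIS1+/- and -1.54 ± 0.23 in LIS1+/+, and the difference 1.74 ± 0.32 (adjusted p = 0.0160, up to 0.0641 without Day 12 LIS1+/- replicate 1 or Day 5 LIS1+/+ replicate 2 or 3). ASS1, the argininosuccinate synthase, had the same shape, with a step of 0.00 ± 0.21 in LIS1+/- and -1.38 ± 0.20 in LIS1+/+ (1.38 ± 0.29, adjusted p = 0.0352), as did the septin gene SEPT4 (1.98 ± 0.42, adjusted p = 0.0354), the fibronectin receptor gene ITGA5 (1.68 ± 0.35, adjusted p = 0.0366) and the carbonic anhydrase-related gene CA11 (1.21 ± 0.23, adjusted p = 0.0164). DMKN, which encodes an epidermal secreted protein, had 49.6, 50.4 and 47 CPM in Day 12 LIS1+/-, against 20.3, 18.9 and 22.1 CPM in Day 12 LIS1+/+. Day 5 DMKN levels were 53.6, 31.4 and 43.4 CPM in LIS1+/-, against 61, 56.9 and 54.6 CPM in LIS1+/+ (1.68 ± 0.30, adjusted p = 0.0133, and 0.0510 without Day 5 LIS1+/+ replicate 1). Here the low group was Day 12 LIS1+/+.

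The simple keratin gene KRT18 (1.49 ± 0.33, adjusted p = 0.0467), was the 1 called gene of 6 tested in a surface ectoderm list. The remaining called genes were the stress kinase gene MAPK11 (1.95 ± 0.42), the RAC activator gene DOCK3 (1.97 ± 0.44), the sterol sensor gene SCAP (1.07 ± 0.23), the nectin gene PVRL1 (1.07 ± 0.24), the antisense RNA DLGAP1-AS2 (2.28 ± 0.51) and LOC100132215 (1.36 ± 0.31). Their adjusted p lay between 0.0432 (MAPK11) and 0.0471 (LOC100132215), near the threshold.

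**Figure D5:**
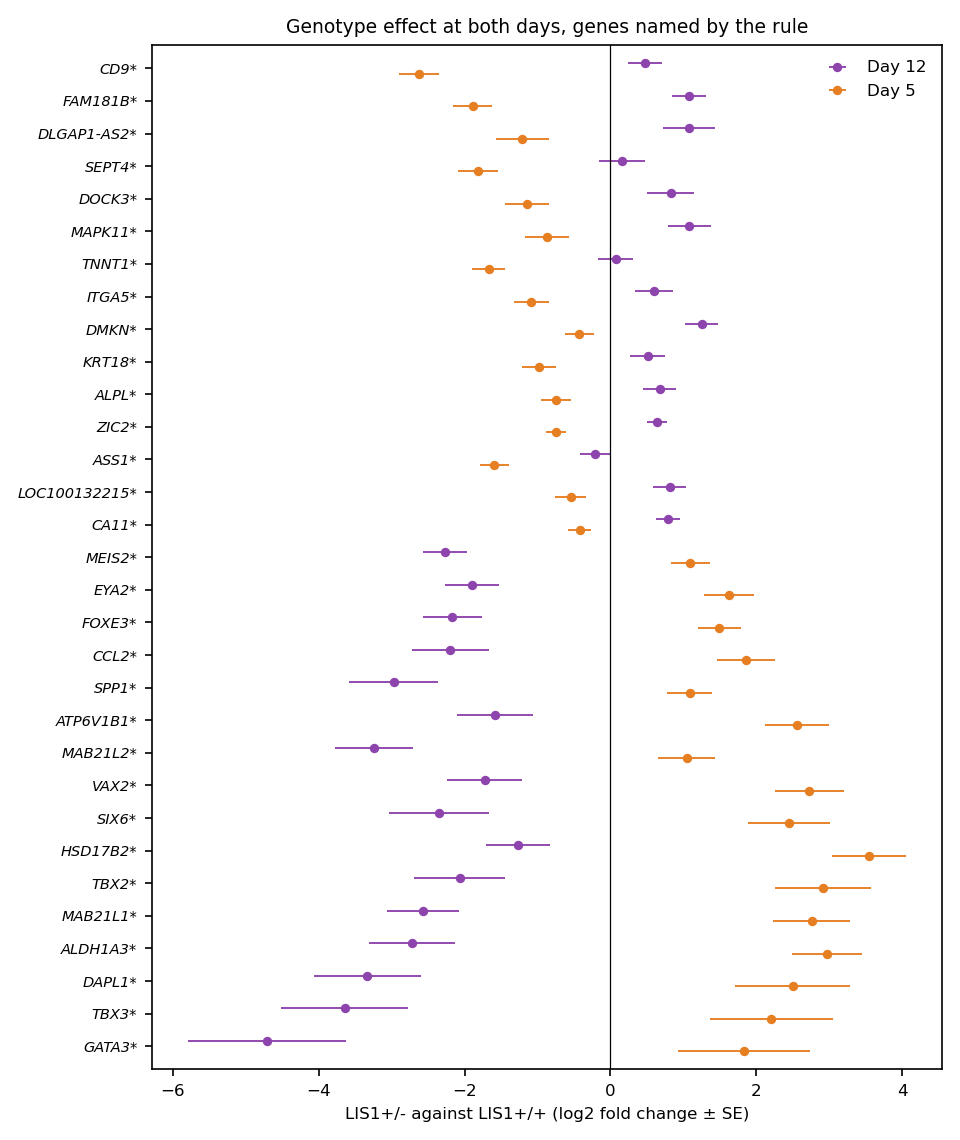
Log2 fold change of LIS1+/- over LIS1+/+ with its SE at Day 12 (purple) and Day 5 (orange) for the 15 genes with the largest positive and 13 of the 15 with the largest negative called difference among those with a mean of at least 10 CPM in 1 group, plus MEIS2, EYA2 and FOXE3, which were called at both days in opposite directions. Among the genes called higher, ASS1 lies left of 0 at both days, and every gene called lower has its Day 12 value left of 0 and its Day 5 value right of 0.

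The same differences can be written as steps in time, the LIS1+/- step minus the LIS1+/+ step. From Day 5 to Day 12, 1842 genes were called in LIS1+/- (15.3%, with 8.57% rising and 6.73% falling) and 2786 in LIS1+/+ (23.1%, with 13.0% rising and 10.2% falling). Each of the 77 genes was called in the step of at least 1 genotype, which the call of the difference itself favours. The split that follows is a description, and its shares over all tested genes were not counted. The step was called in opposite directions in 9 genes, all falling in LIS1+/- and rising in LIS1+/+: MEIS2, ALDH1A3, EYA2, VAX2, ATP6V1B1, COL13A1, TCERG1L, HAS2 and VAV3. The log2 step of MEIS2 was -2.13 ± 0.29 in LIS1+/- and 1.23 ± 0.27 in LIS1+/+, and that of ALDH1A3 -3.63 ± 0.55 in LIS1+/- and 2.06 ± 0.52 in LIS1+/+. A further 34 genes were called in the LIS1+/+ step alone, 23 rising and 11 falling, 21 in the LIS1+/- step alone, 5 rising and 16 falling, and 13 in both in the same direction. The libraries of the genotypes did not overlap at Day 12 in 54 of the 77 genes and at Day 5 in 63, against 17.1% and 17.4% of all tested genes, which the call itself favours.

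Other genes were called at both days in the same direction without a called difference, which does not make their effects equal. The difference was near 0 in some, such as PIN4 (-0.03) and SLC2A3 (0.03). The genes given next had larger differences that did not pass, so they are not examples of an unchanged effect. MEG3, an imprinted non-coding RNA, had 1.29, 0.895 and 0.297 CPM in Day 12 LIS1+/-, against 31.8, 11.5 and 21.1 CPM in Day 12 LIS1+/+. Day 5 MEG3 levels were 5.52, 5.37 and 4.56 CPM in LIS1+/-, against 29.6, 56.2 and 50.8 CPM in LIS1+/+ (difference -1.65 ± 0.71, adjusted p = 0.365). CDKN2A, which encodes cell cycle inhibitors, was higher in LIS1+/- at both days (4.04 ± 0.56 at Day 12 and 2.53 ± 0.34 at Day 5, difference 1.51 ± 0.73, adjusted p = 0.418). PKDCC, a secreted kinase, was lower at both (-2.06 ± 0.19 and -1.01 ± 0.18), and its difference of -1.05 ± 0.26 came near the threshold (adjusted p = 0.0736).

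Of the 19 tested members of a neural crest list, 0 were called in the difference of effects by edgeR. DESeq2 called 3 lower and 0 higher. At an unadjusted p under 0.05, 8 were lower and 1 higher, against 1454 of the 12035 tested genes in either direction. The median over the list was -1.76 at Day 12, -0.53 at Day 5 and -1.67 for the difference. At Day 12, 6 members were called lower in LIS1+/-, against 0.773% of all tested genes. TFAP2A, a regulator of crest and surface ectoderm, had 1.29, 2.98 and 2.67 CPM in Day 12 LIS1+/-, against 96.1, 16.2 and 37.5 CPM in Day 12 LIS1+/+ (-4.30 ± 0.69, adjusted p = 0.00850), and its difference was -3.63 ± 1.00 (adjusted p = 0.158). TWIST1, a regulator of mesenchyme, had 5.15, 2.39 and 3.57 CPM in Day 12 LIS1+/-, against 209, 18.2 and 71.9 CPM in Day 12 LIS1+/+, and its difference was -4.44 ± 1.35 (adjusted p = 0.219). The crest regulator SOX10 stood at -3.34 ± 1.29 (adjusted p = 0.341). Day 12 LIS1+/+ replicate 1 was the highest and replicate 2 the lowest in both TFAP2A and TWIST1.

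Of the 30 lists besides the eye list, 24 had no member called by edgeR in either direction, the crest and the midbrain and hindbrain lists among them. Of 20 tested genes of neural progenitors, 3 were higher and 3 lower at an unadjusted p under 0.05, and DESeq2 called 1 lower. Of 32 genes of mitosis and the spindle, 2 were higher and 0 lower at that level, and DESeq2 called 0. Of 40 motor proteins and partners of LIS1, 2 were higher and 4 lower at that level, and DESeq2 called 1 lower. Of all 12035 tested genes, 1454 reached that level in either direction. The median differences of these lists were 0.16, -0.05 and -0.11, against -0.03 over all tested genes. A muscle list had TNNT1 as its 1 called gene of 3 tested.

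How many genes were called depended on single libraries. The count was 30, 28 and 20 without Day 12 LIS1+/- replicates 1, 2 and 3, and 75, 78 and 123 without those of Day 12 LIS1+/+. It was 61, 66 and 47 without Day 5 LIS1+/- replicates 1, 2 and 3, and 24, 27 and 22 without those of Day 5 LIS1+/+. Of the 77 genes, 17 passed in every alternative tried: CD9, FAM181B and ZIC2 among those called higher, and MEIS2, ALDH1A3, MAB21L1, FOXE3, EYA2, HSD17B2, NR2F1, LGR4, CCL2, SFRP2, MAB21L2, ATP6V1B1, NID1 and VAX2 among those called lower. The direction of the difference held in all alternatives in which a called gene was tested.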

How the data were processed

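RNA of 12 organoid libraries was profiled by bulk MARS-seq. The authors deposited raw counts per gene, 1 file a library. Reads were trimmed with cutadapt and aligned with STAR, and DESeq2, GRCh37 and hg38 are also named, per the submitters' processing notes, without versions or the role of each build. The sources used here do not give whether molecular identifiers were collapsed or which strand was counted. Each file has 26485 gene rows and 5 closing rows, which name no gene. The closing rows held 49.2% to 58.1% of all counts (reads that were not unique alone 26.5% to 33.7%) and stayed out of library sizes and tests. The gene counts came to 1425098 to 4501489 per library.

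Counts were scaled by TMM, and genes were kept by filterByExpr on the 4 groups, which left 12035. edgeR 4.0.16 (R 4.3.3, limma 3.58.1) fitted 1 coefficient per group with robust quasi-likelihood dispersions and 8 residual degrees of freedom. Every contrast came from this fit, two-sided, with Benjamini-Hochberg adjusted p over all tested genes and a threshold of 0.05. Every adjusted p in the text is edgeR's unless another tool is named. On simulated counts with 100 genes changed 2-fold and 100 changed 4-fold in the difference of effects, over 12035 genes, the test recovered 17% and 68%, and 2 of 87 calls were false. Apart from these changes, each simulated gene had the same mean in all 4 groups, with no step in time and no GC trend. The rates therefore describe the simulated setting and may differ in these libraries. Pooled ratios of groups with at most 3 counts carry exact 95% intervals, which cover counting error only.

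Genes named are those called at both days in opposite directions, the 15 largest called differences a direction with a group mean of at least 10 CPM, and at most 4 members per list, those of smallest p. Other genes named, among them LHX2, RAX, PAX6, PMEL, FOXD1, SOX10, CDKN2A and PKDCC and the smaller or rarer called genes, were chosen after their values were seen. A few genes that the rule or a list holds are not reported here, though they remain in the fits and counts. The 12 libraries, the lists and the tests were chosen with earlier results of these data known. Promoter sequences came from RefSeq GRCh38.p14, and GC content from the last 500 bases of GENCODE transcripts, found for 11855 tested genes. Figures were drawn with Python 3.11.15, Matplotlib 3.10.9, NumPy 2.4.6 and pandas 2.3.3. Alternatives were DESeq2 1.42.0 and its size factors, no filter, all 18 libraries, a replicate block, each library left out, the pair of libraries with a GC trend left out, and that trend removed.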

Additional observations from a re-analysis of the deposited data

Results flagged for a closer look

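Each gene below had a genotype effect that differed between Day 12 and Day 5 by the test of that difference (edgeR's quasi-likelihood test, adjusted p under 0.05). The value is the Day 12 minus the Day 5 log2 effect of LIS1+/-. A test for an outlying library within a group was not run, since each group has 3 libraries, and fits with each library left out stand in the next section.

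Positive differences were those of CD9 (3.10), FAM181B (2.97), DLGAP1-AS2 (2.28), SEPT4 (1.98), DOCK3 (1.97), MAPK11 (1.95), TNNT1 (1.74), ITGA5 (1.68), DMKN (1.68), KRT18 (1.49), ALPL (1.42), ZIC2 (1.39), ASS1 (1.38), LOC100132215 (1.36), CA11 (1.21), OTX1 (1.19) and PODXL (1.16).

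Negative differences among eye and forebrain genes were those of TBX3 (-5.85), DAPL1 (-5.83), ALDH1A3 (-5.69), MAB21L1 (-5.33), TBX2 (-4.98), SIX6 (-4.81), VAX2 (-4.45), MAB21L2 (-4.29), FOXE3 (-3.66), EYA2 (-3.53), MEIS2 (-3.36), FZD8 (-2.08), SFRP2 (-1.59), SIX3 (-1.50) and NR2F1 (-1.27). The other negative differences were those of GATA3 (-6.54), HSD17B2 (-4.82), ATP6V1B1 (-4.14), SPP1 (-4.06), CCL2 (-4.06), LAMB1 (-2.29) and NID1 (-1.86).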

How the results depend on the processing

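All called genes that an alternative tested kept the sign of their difference. The number called was 70 with DESeq2's size factors (70 shared with the 77), 179 with DESeq2 itself (62 higher and 117 lower, 77 shared), 342 with no filter on low counts (184 and 158, 77 shared), 129 with all 18 libraries in the fit (47 and 82, 75 shared), 142 without the pair of libraries with a GC trend (57 higher, 68 shared) and 97 with that trend removed (33 higher and 64 lower, 64 shared). At Day 12 the 118 called genes became 472 with no filter, 247 with DESeq2 and 348 without that pair. At Day 5 the 144 became 388, 228 and 226 under the same settings and 238 with all 18 libraries. With each library left out in turn, the difference called 20 to 123 genes, 4 to 49 higher and 14 to 74 lower, Day 12 called 16 to 236 and Day 5 called 50 to 208. The difference of PAFAH1B1 ranged from -0.34 to 0.03 (0.0254) with a library left out, was 0.13 without the pair with a GC trend and 0.01 (0.00911) with that trend removed. The cause of these shifts was not tested.

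Replicate numbers were shared between genotypes, but libraries of the same number did not deviate together (r of 0.03, 0.09 and 0.05 at Day 12 and -0.07, -0.13 and -0.02 at Day 5, over genes), so the numbers were not taken to pair the samples. With the number as a replicate block within a day, 64 genes were called, 52 of them among the 77.

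The shallowest library held 1425098 counts. On the simulated counts, with 3 libraries a group, the test recovered 17% of the genes with a 2-fold difference of effects. That rate may differ in these libraries, and the part of depth in it was not tested. Large fitted values of genes with few counts in a group are imprecise.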

Other observations

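A list of metallothioneins and genes of the oxidative response leaned one way, although 0 of its 13 tested members were called (edgeR) in the difference of effects, at Day 12 or at Day 5. In the difference DESeq2 called 0 too, and 2 were lower and 0 higher at an unadjusted p under 0.05. The difference was negative in 12 members and positive in 1, against 6299 and 5736 of the 12035 tested genes. Its median was -0.40, against -0.03 over all tested genes. The median effect of LIS1+/- was -0.15 at Day 12 and 0.29 at Day 5, against -0.03 and 0.01 over all tested genes. Genes of DNA replication leaned slightly the other way, with a positive difference in 24 of 33 members and a median of 0.20, and 0 called by edgeR in the difference. DESeq2 called 1 higher, and 4 were higher and 1 lower at an unadjusted p under 0.05. Both lists were singled out from the 30 with their values known. Both are descriptions of genes in the same 12 libraries, and such genes are not independent of each other.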
